A study of Mus musculus with 10 samples.

Results

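The genes described here encode the enzymes of glycolysis and of glycogen synthesis and breakdown, with the proteins that control them. They were listed by name, 36 in all, and a gene counted as measured where at least 1 probe set of the array carried its symbol and no other. This held for 31 of the 36, among 22180 genes measured in the series. Where a gene had several such probe sets, the brightest over all arrays was kept. Aldoa and Pgm1 have a probe set that they share with another gene, and Gpi1, Eno1 and Pfkfb1 were not analysed here.

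The values come from gastrocnemius muscle, a calf muscle of mostly fast fibres, of 10 male NMRI mice, an outbred stock, with 1 Affymetrix Mouse Gene 2.0 ST array per mouse. The 5 mice of the control group (Muscle_Control) ate a basal natural diet low in carnitine (under 5 mg per kg of feed), and the 5 of the carnitine group (Muscle_Carnitine) ate the same diet with 1000 mg of L-carnitine mixed into each kg. The mice were 3 weeks old on arrival and were put on the diets after a period of acclimatization. The study killed mice at 9, 15 and 18 months, and the labels do not give the age of the array mice, so age may differ between arrays. Values are RMA log2 values as deposited, and each difference is carnitine minus control on that scale. The arrays correlated with each other at 0.973 to 0.994 across genes. The spread of values was narrower on the array of control replicate 5, with an interquartile range of 2.20, than elsewhere, where it was 2.39 to 2.59. The muscle markers were bright on every array, with the actin gene Acta1 at 13.72 to 13.88 and the creatine kinase gene Ckm at 13.22 to 13.41. In tissue RNA, fewer cells of a type and less RNA per cell cannot be told apart.

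Glycolysis splits glucose into pyruvate and yields ATP without oxygen. Glycogen is the branched glucose store that fast fibres draw on at the start of work, and phosphorylase releases its glucose units as glucose phosphate. Several steps are run by enzymes with a muscle isoform and others that prevail in brain, liver or most tissues, and fast fibres hold more of the glycolytic enzymes than slow fibres do. L-carnitine is needed to bring long-chain fatty acids, the other main fuel of muscle, into mitochondria.

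Most of the measured genes had slightly higher mean values in carnitine muscle. The difference was positive in 26 of 31 genes, with a median of 0.10 and a range from -0.22 (Ppp1r3c) to 0.28 (Gpd1), and no gene reached 1.5-fold. Over all 22180 genes the difference was positive in 47.7%, with a median of -0.01. None of the 31 passed an adjusted p of 0.05 in limma, and neither did any of the 22180 genes (0 called, 0%). With an unadjusted p below 0.05, 4 of the 31 were higher (Tpi1, Eno3, Ugp2 and Pfkm) and 0 lower. Over all genes, 3.14% were higher and 3.83% lower by that rule. In 3 of the 31 (Tpi1, Eno3 and Ugp2) all 5 carnitine mice lay above every control, and in 0 all lay below. Such separation held for 0.505% of all genes in the higher and 0.609% in the lower direction.

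The bright genes of the array as a whole leaned the same way. Of the 31 genes, 19 had a mean above 10, and 18 of these 19 had a positive difference, with a median of 0.14. Of all 653 genes with a mean above 10, the difference was positive in 77.8% and its median was 0.07, and 6.43% were higher with an unadjusted p below 0.05 and 1.23% were separated. The 12 dimmer members had 8 positive differences and a median of 0.03. After cyclic loess, which evens out shifts that depend on brightness, the median was 0.05 for the 31 genes and -0.02 for all genes above 10, and 0 of the 31 were then higher with an unadjusted p below 0.05. The differences were then 0.13 for Tpi1, 0.12 for Eno3, 0.15 for Ugp2 and 0.099 for Pfkm, and none of the 31 was separated upwards. After median centring of each array the medians were 0.15 and 0.12. The level of 10 was chosen after the values had been seen.

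**Figure D1:**
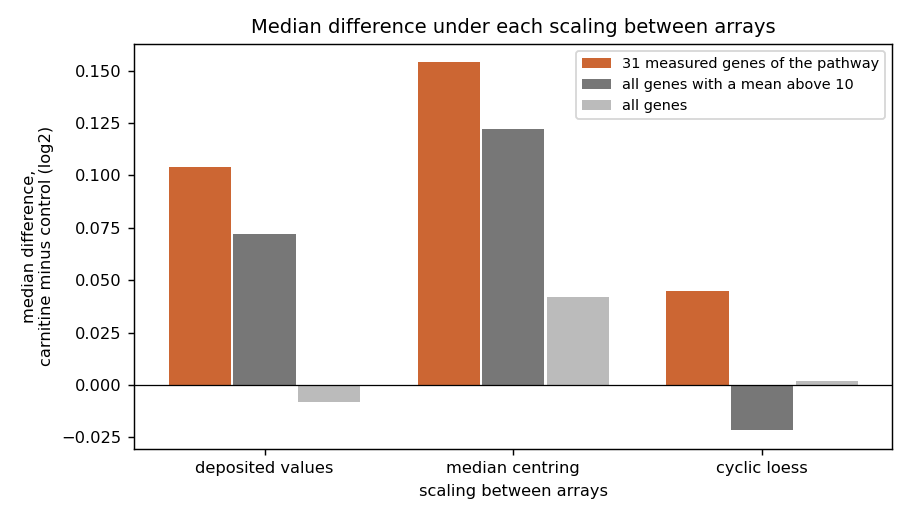
Median log2 difference (carnitine minus control, vertical axis) of the 31 measured genes, of all genes with a mean above 10 and of all genes, for the deposited values and after 2 further scalings of the arrays. The bars of the 31 genes stand at 0.10, 0.15 and 0.05, above those of the bright genes at 0.07, 0.12 and -0.02.

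Triose phosphate isomerase, which interconverts the triose phosphates that aldolase makes, is encoded by Tpi1. Its values were 12.04, 12.15, 12.09, 12.05 and 12.09 in control replicates 1 to 5 and 12.19, 12.33, 12.36, 12.38 and 12.24 in carnitine replicates 1 to 5. The groups did not overlap, with control replicate 2 just below carnitine replicate 1. The mean was 12.08 ± 0.04 over the control and 12.30 ± 0.08 over the carnitine mice (SD, n = 5 each), a 1.16-fold level. The difference was 0.22 (SE 0.068, 95% confidence interval 0.071 to 0.361), with an adjusted p of 0.712 in limma.

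Enolase, which makes phosphoenolpyruvate, has a muscle isoform encoded by Eno3. Its values were 13.00, 13.21, 13.20, 13.17 and 13.17 in the control mice and 13.29, 13.33, 13.41, 13.34 and 13.31 in the carnitine mice. The groups did not overlap, and control replicate 1 stood well below the other controls. Eno3 averaged 13.15 ± 0.09 and 13.34 ± 0.05 (SD, n = 5 each), which differ by 0.19 (SE 0.066, adjusted p in limma 0.712). Without control replicate 1 the difference was 0.15.

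Ugp2 encodes the enzyme that makes UDP-glucose, the building block of glycogen. It stood at 11.58, 11.56, 11.28, 11.61 and 11.59 in the control mice and at 11.77, 11.81, 11.90, 11.69 and 11.63 in the carnitine mice. The groups did not overlap, though control replicate 4 came close to carnitine replicate 5, and control replicate 3 was the lowest. Ugp2 averaged 11.52 ± 0.14 and 11.76 ± 0.10 (SD, n = 5 each), which differ by 0.24 (SE 0.085, adjusted p in limma 0.712), and without control replicate 3 it was 0.18.

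The bases before the transcription start of these 3 genes are shown because they are the members whose groups were apart. The sequences are RefSeq's for GRCm38.p6, 250 bases each, 5′ to 3′ on the gene's strand and ending at the base before the start. The table holds 2 starts for Ugp2. RefSeq gives Eno3 several transcripts, and the table has the start of 1 of them. Capitals mark the E-box CANNTG, which myogenic and other bHLH factors bind, and ACGTG, searched on both strands. ACGTG is a form of the core of the hypoxia response element, and the form GCGTG was not searched.
Tpi1, chr6:124814159-124814408, minus strand: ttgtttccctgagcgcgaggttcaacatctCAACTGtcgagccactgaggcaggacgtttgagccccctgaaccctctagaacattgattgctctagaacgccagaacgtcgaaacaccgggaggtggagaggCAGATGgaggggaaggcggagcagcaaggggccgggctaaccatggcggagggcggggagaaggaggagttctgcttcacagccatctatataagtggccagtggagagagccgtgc
Eno3, chr11:70656926-70657175, plus strand: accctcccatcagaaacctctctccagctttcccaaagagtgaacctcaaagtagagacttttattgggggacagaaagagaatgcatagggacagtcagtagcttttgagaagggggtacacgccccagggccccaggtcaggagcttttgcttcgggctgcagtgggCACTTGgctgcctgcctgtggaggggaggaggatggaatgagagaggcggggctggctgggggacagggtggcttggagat
Ugp2 upstream start, chr11:21371268-21371517, minus strand: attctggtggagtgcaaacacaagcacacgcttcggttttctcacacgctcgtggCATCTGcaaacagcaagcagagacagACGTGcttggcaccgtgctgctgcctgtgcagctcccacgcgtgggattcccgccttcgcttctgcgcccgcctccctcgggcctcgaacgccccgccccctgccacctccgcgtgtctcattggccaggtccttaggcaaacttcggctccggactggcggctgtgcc
Ugp2 downstream start, chr11:21370630-21370879, minus strand: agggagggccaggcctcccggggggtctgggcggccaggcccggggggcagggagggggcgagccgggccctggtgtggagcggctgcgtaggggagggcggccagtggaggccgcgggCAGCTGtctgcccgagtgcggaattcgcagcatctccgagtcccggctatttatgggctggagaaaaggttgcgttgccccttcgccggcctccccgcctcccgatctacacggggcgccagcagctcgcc
All 4 windows hold an E-box, and the window of Tpi1 holds 2 of them, the first bases of which lie 220 and 117 bases before the start. An E-box is in 66.2% of all 32851 windows of this length in the table. The form ACGTG is in 1 of the 4, at the upstream start of Ugp2, and in 16.6% of all windows. The 30 of 31 measured genes with an entry have 38 windows, of which 26 hold an E-box and 14 the letters ACGTG. The letters TATAAA and the MEF2 motif, matched on both strands, are in none of the 4 windows, against 12.4% and 2.92% of all windows. Only the exact letters TATAAA were searched, so near matches were not counted, such as TATATAA close to the end of the Tpi1 window. An ACGTG inside CACGTG is also counted as an E-box. A match is a description of the letters and not a bound site.

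**Figure D2:**
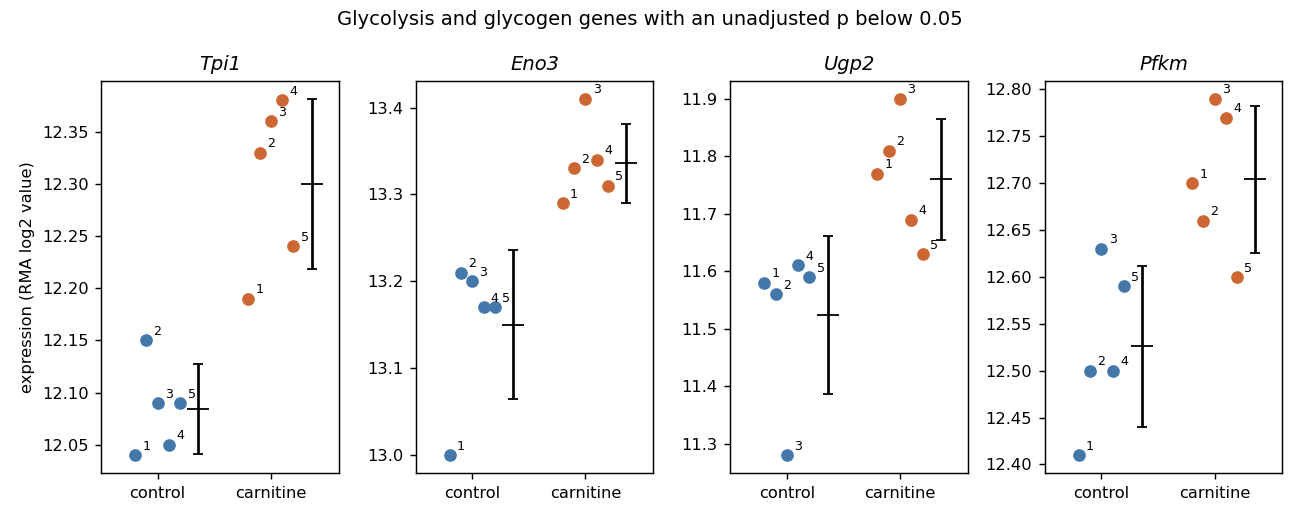
RMA log2 values (vertical axis, a scale of its own in each panel) of Tpi1, Eno3, Ugp2 and Pfkm in the 5 control and 5 carnitine mice, with the replicate number beside each point and the mean ± SD in black. The groups are apart in Tpi1, Eno3 and Ugp2, while in Pfkm carnitine replicate 5 at 12.60 lies below control replicate 3 at 12.63.

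At the entry to glycolysis stand the hexokinases, which phosphorylate glucose. Hk2, the insulin-responsive muscle form, ranged from 10.23 to 10.63 in control and from 10.32 to 10.72 in carnitine mice, with a difference of 0.10 (SE 0.099). Hk1, the form of brain and most tissues, ranged from 5.97 to 6.13 and from 5.97 to 6.27, where the signal is weak, with a difference of 0.02 (SE 0.088). The groups overlapped widely in both genes.

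Phosphofructokinase commits the sugar to glycolysis. Its muscle form Pfkm had values of 12.41, 12.50, 12.63, 12.50 and 12.59 in the control mice and 12.70, 12.66, 12.79, 12.77 and 12.60 in the carnitine mice. All carnitine mice but replicate 5 lay above every control, and control replicate 1 was again the lowest. Pfkm averaged 12.53 ± 0.09 and 12.70 ± 0.08 (SD, n = 5 each), which differ by 0.18 (SE 0.071, adjusted p in limma 0.712). Its unadjusted limma p of 0.0249 became 0.0533 when control replicate 1 was left out, 0.0665 when carnitine replicate 3 was and 0.0606 when carnitine replicate 4 was. The liver form Pfkl differed by -0.01 (SE 0.087) and the platelet form Pfkp by 0.03 (SE 0.13). In Pfkp carnitine replicate 5 had 5.99, the lowest of the 10, while the other carnitine mice reached 6.76 and the controls from 6.32 to 6.56.

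Pfkfb3 makes fructose 2,6-bisphosphate, the activator of phosphofructokinase, and it varied more between mice than any other member, with a within-group SD of 0.71. It stood at 8.99, 10.02, 9.63, 7.94 and 9.60 in the control mice and at 8.37, 8.93, 8.81, 9.53 and 9.87 in the carnitine mice. Low and high mice occurred in both groups, and control replicates 4 and 2 held the lowest and the highest value. The difference was -0.13 (SE 0.34, 95% confidence interval -0.87 to 0.60), and it turned to 0.06 without control replicate 2 and to 0.05 without carnitine replicate 1. Next in within-group SD came Gbe1 at 0.31 and Phka1 at 0.29, and the least variable were Gapdh at 0.062 and Tpi1 at 0.065.

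In lower glycolysis all 8 measured genes had a positive difference, with a median of 0.14. Of these 8, 6 had a mean above 10. Among all genes above 10 the difference was positive in 77.8%, with a median of 0.07, and among all genes in 47.7%. Pgk1, which makes the first ATP of the pathway, ranged from 11.56 to 11.74 in control and from 11.66 to 11.82 in carnitine mice, a difference of 0.13 (SE 0.070). Pkm, the pyruvate kinase of muscle, differed by 0.11 (SE 0.070). All 5 carnitine mice lay above the control mean in both genes, and in both the groups overlapped. Gapdh, the dehydrogenase often used as a reference gene, averaged 13.55 ± 0.08 and 13.60 ± 0.03 (SD, n = 5 each), which differ by 0.05 (SE 0.064), and by -0.01 after cyclic loess. Of its 3 probe sets with no other symbol, the kept set and another differed by 0.05 each and the dimmest, with means of 10.29 and 10.55, by 0.26, so they disagree in size. Gapdh also has many near-identical pseudogene copies, and its values are uncertain for that reason. Aldoc, the aldolase of brain, was the 1 member that, on average, was no brighter than the median probe set, and it differed by 0.01 (SE 0.14).

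The muscle form of phosphoglycerate mutase, Pgam2, ranged from 10.62 to 10.97 in control and from 10.79 to 10.98 in carnitine mice, with a difference of 0.15 (SE 0.084). Pgam1, the form of brain and most tissues, differed by 0.21 (SE 0.13) in its brighter probe set, where carnitine replicate 3 reached 8.50, and by 0.01 in its dimmer set. The 2 probe sets of Pgam1 thus disagree.

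**Figure D3:**
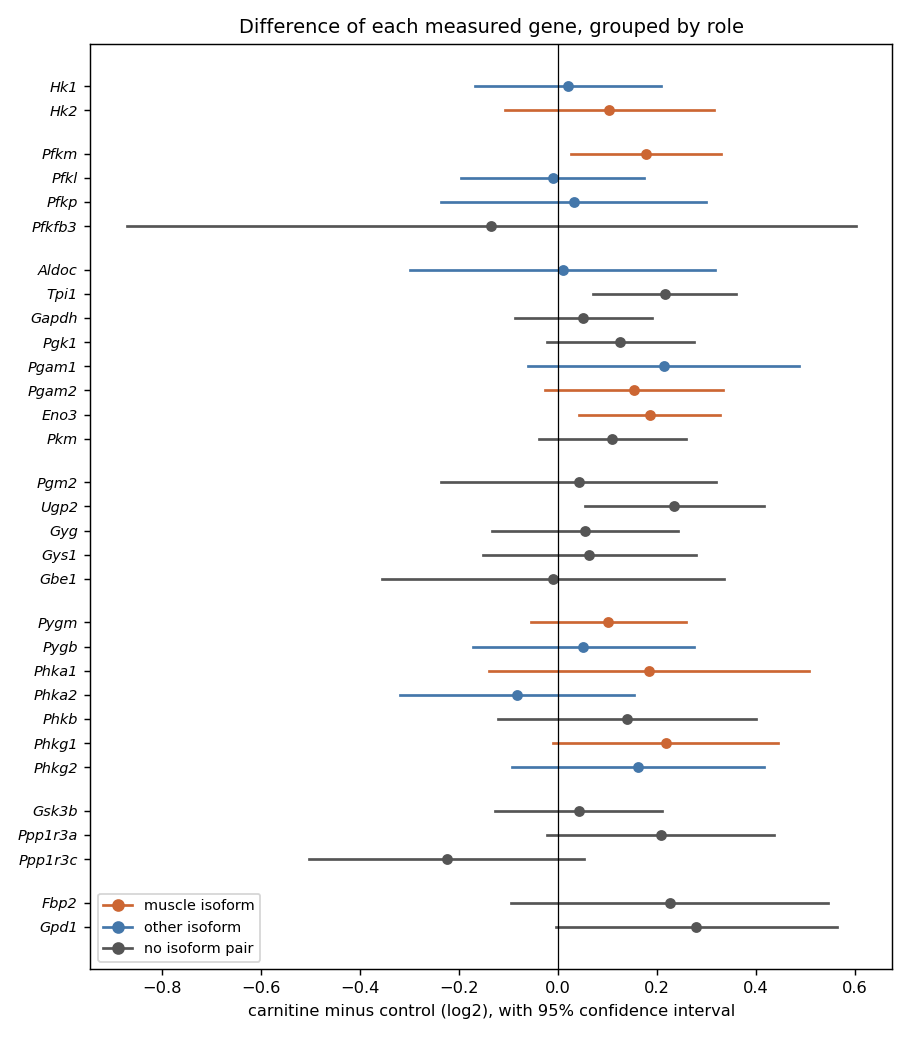
Difference of each of the 31 measured genes (log2, carnitine minus control, horizontal axis) with its 95% confidence interval from limma, grouped by role from hexokinases at the top to the branch enzymes at the bottom and coloured by isoform class. The intervals of Pfkm, Tpi1, Eno3 and Ugp2 lie above 0, and that of Pfkfb3, from -0.87 to 0.60, is the widest.

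Apart from Ugp2, the genes of glycogen synthesis differed little between the groups. Gyg, the protein primer on which glycogen starts, differed by 0.06 (SE 0.088), and Gys1, the muscle glycogen synthase, by 0.06 (SE 0.10), and both turned to -0.03 after cyclic loess. In Gys1 the carnitine mice held both ends of the range, with replicate 5 at 11.13 and replicate 3 at 11.67. Gbe1, the branching enzyme, differed by -0.01 (SE 0.16), and its extremes of 9.00 and 10.02 were control replicates 3 and 4. Pgm2, related to the phosphoglucomutase that feeds glucose units into glycogen, differed by 0.04 (SE 0.13).

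Glycogen breakdown starts with phosphorylase, which phosphorylase kinase switches on in response to calcium and adrenaline. The muscle phosphorylase Pygm ranged from 13.17 to 13.50 in control and from 13.37 to 13.50 in carnitine mice, with a difference of 0.10 (SE 0.073), and the brain form Pygb differed by 0.05 (SE 0.10). Phosphorylase kinase is built of alpha, beta, gamma and calmodulin subunits. Its catalytic muscle subunit Phkg1 stood at 10.77, 11.17, 11.19, 10.87 and 11.05 in the control mice and at 11.17, 11.33, 10.96, 11.26 and 11.42 in the carnitine mice, a difference of 0.22 (SE 0.11). Carnitine replicates 2, 4 and 5 lay above every control, and control replicates 1 and 4 were the lowest.

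The regulatory muscle subunit Phka1 shared those 2 low controls. It stood at 11.18, 11.76, 12.05, 11.48 and 12.03 in the control mice and at 11.83, 12.12, 11.79, 11.68 and 12.00 in the carnitine mice, a difference of 0.18 (SE 0.15) that was 0.054 without control replicate 1. In Phkb, which encodes the beta subunit, control replicates 1 and 4 were also lowest, at 11.04 and 11.03, against 11.43 to 11.50 in the other controls and 11.17 to 11.73 in the carnitine mice, with a difference of 0.14 (SE 0.12). Of the forms found in liver and other tissues, Phka2 differed by -0.08 (SE 0.11) and Phkg2 by 0.16 (SE 0.12). Control replicate 5 had the lowest value of both, 6.15 and 6.81.

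Glycogen synthase is switched off by the kinase Gsk3b and switched on by protein phosphatase 1, which targeting subunits bring to glycogen. Gsk3b ranged from 10.17 to 10.48 in control and from 10.31 to 10.46 in carnitine mice, with a difference of 0.04 (SE 0.078) that was -0.06 after cyclic loess. Ppp1r3a, the targeting subunit of striated muscle, differed by 0.21 (SE 0.11), and its highest value of 11.72 was that of carnitine replicate 5. Ppp1r3c, the subunit also called protein targeting to glycogen, had the most negative difference among the members. It stood at 10.94, 11.05, 11.46, 11.20 and 10.99 in the control mice and at 11.00, 10.90, 11.06, 11.11 and 10.45 in the carnitine mice. No carnitine mouse lay above the control mean of 11.13, carnitine replicate 5 was far below the others, and the remaining values overlapped. The difference was -0.22 (SE 0.13, adjusted p in limma 0.721), -0.11 without carnitine replicate 5 and -0.32 after cyclic loess.

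The last members lie on branches of the pathway. Gpd1 encodes the cytosolic glycerol 3-phosphate dehydrogenase, which links glycolysis to glycerolipid synthesis and to the electron shuttle into mitochondria. It stood at 10.52, 11.22, 11.31, 10.89 and 11.22 in the control mice and at 11.11, 11.37, 11.33, 11.33 and 11.42 in the carnitine mice. All carnitine mice but replicate 1 lay above every control, and control replicates 1 and 4 were again the lowest. The means were 11.03 ± 0.33 and 11.31 ± 0.12 (SD, n = 5 each). The difference of 0.28 (SE 0.13, adjusted p in limma 0.712) was the most positive among the members. It was 0.15 without control replicate 1, and 0.23 (SE 0.12) in the dimmer of its 2 probe sets. Fbp2, the muscle fructose bisphosphatase that runs the phosphofructokinase step backwards, ranged from 8.19 to 9.04 in control and from 8.47 to 8.91 in carnitine mice, a difference of 0.23 (SE 0.15). Control replicate 4 held its highest value of 9.04, and without that mouse the difference was 0.36.

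Muscle isoforms were set against the other isoforms of the same step. All 7 measured muscle isoforms (Hk2, Pfkm, Pgam2, Eno3, Pygm, Phka1 and Phkg1) had a positive difference, with a median of 0.18, and 6 of 8 other isoforms (Hk1, Pfkl, Pfkp, Aldoc, Pgam1, Pygb, Phka2 and Phkg2) did, with a median of 0.03. All 7 muscle isoforms had a mean above 10 and all 8 others did not, so the classes are also the bright and the dim ones, and class and brightness cannot be told apart here. After cyclic loess the medians were 0.10 and 0.05. Within a mouse the log ratio of a muscle isoform to its partner cancels a shift that both share, and it could be formed for 7 of 9 pairs. It is read here only for how it differs between the groups.

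The ratio of Pfkm to Pfkl ran from 5.70 to 6.02 in control and from 6.01 to 6.15 in carnitine mice, and 4 of 5 carnitine mice lay above every control. It differed by 0.19 (SE 0.070), with a two-sided exact permutation p of 0.0159 over 252 assignments and 0.111 after Benjamini-Hochberg adjustment over the 7 pairs. After cyclic loess it differed by 0.11 (exact permutation p = 0.198), and the unadjusted exact p was 0.0556 to 0.0635 when any of carnitine replicates 2 to 5 was left out. The ratio of Pfkm to Pfkp differed by 0.15 (SE 0.11, exact permutation p = 0.286, adjusted 0.597). All but 1 of the carnitine mice lay above the control range of 6.06 to 6.13, with replicate 5, the mouse with the low Pfkp, at the top. The difference was 0.051 without that mouse, 0.23 without carnitine replicate 2 (exact permutation p = 0.00794) and 0.05 after cyclic loess. The ratio of Hk2 to Hk1 differed by 0.08 (SE 0.065, exact permutation p = 0.254, adjusted 0.597), and after cyclic loess by -0.06. For Phka1 over Phka2 the difference was 0.27 (SE 0.25, exact permutation p = 0.341, adjusted 0.597), with a control range of 4.47 to 5.88 that held all the carnitine values of 5.29 to 5.57. It was 0.094 without control replicate 1, 0.446 without control replicate 5 and 0.17 after cyclic loess. Pygm over Pygb and Phkg1 over Phkg2 differed by 0.05 (SE 0.095) and 0.06 (SE 0.19), and Pgam2 over Pgam1 by -0.06 (SE 0.11), which was 0.04 with the mean of both Pgam1 probe sets. No ratio passed 0.05 after adjustment over the 7 pairs.

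**Figure D4:**
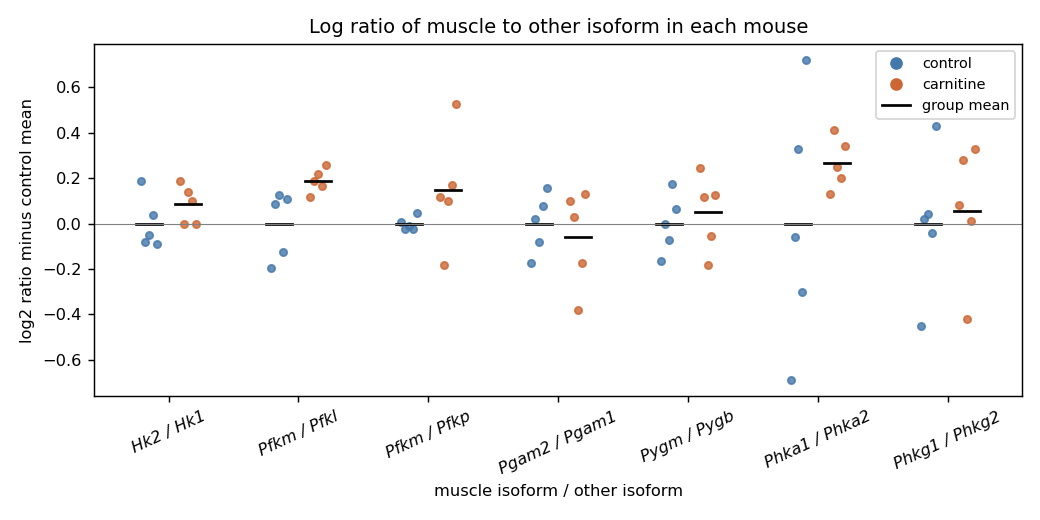
Log2 ratio of each muscle isoform to another isoform of the same step in each mouse, minus the control mean of that ratio (vertical axis), for the 7 pairs that could be formed; points are mice and black lines group means. The carnitine mean of Pfkm over Pfkl lies 0.19 above control with little overlap, and the widest control spread is that of Phka1 over Phka2.

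Some mice stood low or high across many members. Control replicate 1 had the lowest of the 10 values in 12 of the 31 genes and in 11 of the 19 with a mean above 10. Carnitine replicate 3 had the highest value in 10 of the 31, and carnitine replicate 5 the lowest in 4 and the highest in another 4. Such counts were not made over all genes. The median deviation from a gene's mean over the 10 arrays was -0.162 for the 19 bright members in control replicate 1, and -0.04 for all genes above 10. These 2 medians were -0.052 and -0.10 in control replicate 5 and 0.103 and 0.052 in carnitine replicate 3. The SD was larger in control than in carnitine in 22 of the 31 genes (71.0%), against 75.0% of all genes.

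**Figure D5:**
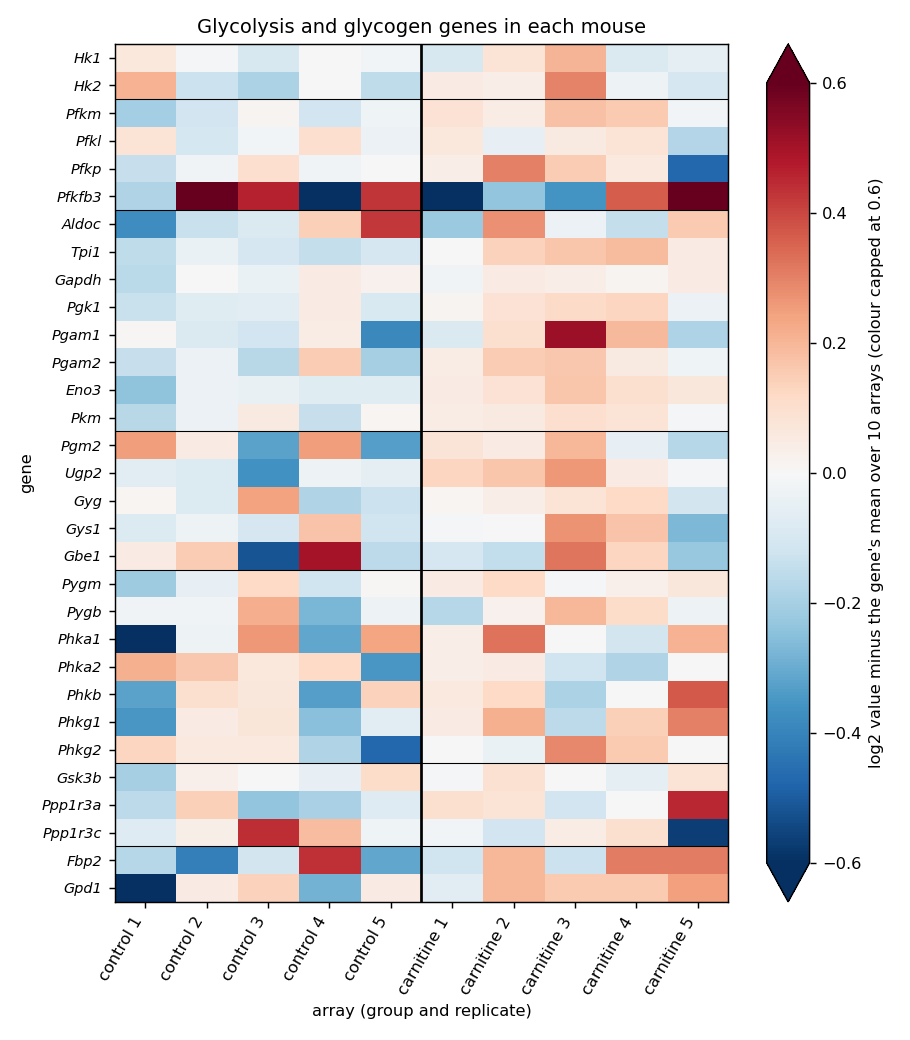
Log2 value of each measured gene minus its mean over the 10 arrays (colour, capped at 0.6 in either direction) in each mouse, with genes in rows by role and the control mice left of the vertical line. Control replicate 1 is lowest in 12 of the 31 genes and carnitine replicate 3 highest in 10, and the row of Pfkfb3 shows low and high mice in both groups.

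In 3 of the 5 carnitine mice the mean of the slow-fibre markers lay below that of every control. Of 9 slow-fibre markers, 8 had a negative difference, 6 of them with an unadjusted p below 0.05 in limma (3.83% of all genes were lower by that rule) and 0 past the adjusted threshold. Their mean value ran from 8.74 to 9.61 in control and was 8.18, 7.39, 9.10, 9.41 and 6.85 in carnitine replicates 1 to 5. Control replicate 1, the lowest mouse for Tpi1, Eno3, Pfkm, Pygm and Gpd1, had the highest slow-fibre mean of all 10, at 9.61. Carnitine replicates 3 and 4, whose slow-fibre means lay within the control range, had the highest values of Tpi1 (12.36 and 12.38), Eno3 (13.41 and 13.34) and Pfkm (12.79 and 12.77). Carnitine replicate 5, with the lowest slow-fibre mean, had the lowest Pfkm and Ugp2 values of the carnitine group and the highest of all 10 values for Gpd1, Phkg1, Phkb and Ppp1r3a. Among the myosin genes, the difference was 0.04 (SE 0.066) for Myh4, 0.03 (SE 0.11) for Myh1 and -0.12 (SE 0.18) for Myh2, which are fast forms, and -1.64 (SE 0.67) for the slow form Myh7. Whether fibre type has a part in the differences of the glycolytic genes was not tested.

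The mean values of the marker lists of other cell types overlapped between the groups, list by list. None of the 4 listed erythrocyte markers was measured. The fibroblast markers, 5 of 5 with a positive difference, had a mean of 7.74 to 8.63 in control and 8.16 to 8.83 in carnitine mice. The 2 measured markers of nerve and Schwann cells ranged from 7.04 to 7.46 and from 7.31 to 8.12, and the 4 T cell markers, all no brighter than the median probe set, from 5.13 to 5.94 and from 4.99 to 5.28. The adipocyte, endothelial, macrophage, neutrophil, satellite cell and tendon lists overlapped as well. By an unadjusted p below 0.05 in limma, Retn (adipocyte, -0.38), Cd163 (macrophage, -0.24) and Elane (neutrophil, -0.25) were lower, and Myf5 (satellite cell, 0.27) and Thbs4 (tendon, 0.44) higher. Over all genes, 3.83% were lower and 3.14% higher by that rule. Each of these lists also had members of the opposite sign. The difference was positive in 2 of 6 adipocyte, 2 of 5 macrophage and 1 of 4 neutrophil markers. It was negative in 1 of 2 satellite cell and 1 of 3 tendon markers. Of the 5 markers named by p, Elane alone had groups that did not overlap, at 5.99 to 6.30 in control and 5.65 to 5.96 in carnitine mice. Such separation in the lower direction held for 0.609% of all genes. Elane was dim, with a mean of 6.0 against a median probe set level of 5.8, and 3 of the 4 neutrophil markers were no brighter than that level. None of the markers passed the adjusted threshold, and their part in the differences was not tested.

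Of 43 other genes of the pathway, 33 were measured, and 21 of them had a positive and 12 a negative difference, with a median of 0.07. By an unadjusted p below 0.05 in limma, 3 were higher (Tigar, Bpgm and Ppp1ca) and 1 lower (Ppp1r3b), against 3.14% and 3.83% of all genes, and 0 passed the adjusted threshold. Tigar, a bisphosphatase that lowers fructose 2,6-bisphosphate, stood at 8.87, 8.87, 8.92, 8.47 and 8.91 in the control mice and at 9.03, 9.19, 9.03, 9.30 and 9.28 in the carnitine mice. The groups did not overlap, as in 0.505% of all genes in that direction, and the difference was 0.36 (SE 0.10, adjusted p in limma 0.712). Bpgm, the bisphosphoglycerate mutase, differed by 0.25 (SE 0.10), and Ppp1ca, a catalytic subunit of protein phosphatase 1, by 0.20 (SE 0.094). Ppp1r3b, the liver-type targeting subunit, differed by -0.19 (SE 0.087), the same sign as Ppp1r3c, and no carnitine mouse lay above its control mean of 6.92.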

How the data were processed

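Per the submitters' processing notes, the authors used RMA and the Affymetrix Expression Console for the deposited log2 values, and no version is given in the sources used here. By its design RMA gives all arrays the same distribution of probe intensities before these are combined into probe set values, which hides a change in total RNA and shrinks differences of dim probe sets. The deposited probe set values still differed somewhat between arrays, with medians from 5.72 (carnitine replicate 1) to 5.96 (control replicate 5). Of 34390 probe sets, 23521 have 1 gene symbol in the platform annotation, 1814 have several, and 9055 have no symbol there. The probe sets with 1 symbol stand for 22180 genes, which entered the tests with 1 probe set each. Of these genes, 1082 had several probe sets, and the brightest was kept. Groups were taken from the sample titles, and all 10 arrays were fitted with limma 3.58.1 in R 4.3.3 (lmFit, eBayes with trend), with no filter and two-sided Benjamini-Hochberg adjustment over all genes at 0.05. Isoform log ratios had an exact permutation test over 252 assignments, which cannot give a p below 0.00794. The fit was tested on simulated data, and the outcome is not given here. The members and lists were chosen with earlier results of these data known, so no p was adjusted over the members. All members are named, with those other pathway genes that had an unadjusted p below 0.05. The labels put separate mice in each group but do not say that the arrays' mice were of equal age. Mice were kept 5 to a cage, and the labels do not name the cages of the arrays' mice, so mice of a group may have shared a cage. Upstream sequences come from RefSeq (GRCm38.p6). Alternatives were a replicate block, no dim genes, eBayes without trend or with robust variances, array weights, cyclic loess, median centring, the mean of probe sets and the omission of arrays.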

Additional observations from a re-analysis of the deposited data

Results flagged for a closer look

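The outermost of 5 mice stood apart from the rest of its group, by Dixon's gap test, in 3 of 76 combinations of a gene or ratio with a group, about the 1 in 20 that chance gives. Eno3 was 13.00 in control replicate 1 and 13.17 to 13.21 in the other controls, and the difference between the groups was 0.15 without that mouse. Ugp2 was 11.28 in control replicate 3 and 11.56 to 11.61 in the other controls, and the difference was 0.18 without it. Phka2 was 6.15 in control replicate 5 and 6.56 to 6.71 in the other controls, and without that mouse the carnitine mice all lay below the controls, with a difference of -0.18 and an adjusted p of 0.876 in limma.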

How the results depend on the processing

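Of the 31 measured genes, 19 kept the sign of their difference under the alternatives tried, and none passed an adjusted p of 0.05 under any of them. The signs that turned were those of Pgm2 with array weights (-0.0058), of Pfkl and Gbe1 after median centring (both 0.04) and, after cyclic loess, of Gapdh (-0.0116), Gyg (-0.0332), Gys1 (-0.0288) and Gsk3b (-0.0594). With an array left out, the difference ran from -0.0285 to 0.0465 in Hk1, -0.038 to 0.033 in Pfkl, -0.039 to 0.153 in Pfkp, -0.458 to 0.062 in Pfkfb3, -0.0825 to 0.117 in Aldoc, -0.0355 to 0.11 in Pgm2, -0.141 to 0.114 in Gbe1, -0.0095 to 0.113 in Pygb and -0.0025 to 0.075 in Gsk3b. Of the ratios, Hk2 over Hk1 turned to -0.06 after cyclic loess and Pgam2 over Pgam1 to 0.041 with the mean of probe sets, and with an array left out Pgam2 over Pgam1 ran from -0.107 to 0.0205 and Phkg1 over Phkg2 from -0.0565 to 0.175. The cause of these turns was not tested. The count of 4 higher members was 0 after cyclic loess, 3 to 7 with an array left out (7 without control replicate 2) and 2 without control replicates 1 and 5 together, chosen after seeing the data. The count of 0 lower members was 1 with the replicate block, after cyclic loess (Ppp1r3c in both) and without control replicates 1 and 5, and 0 to 1 with an array left out. The 3 separated members became 0 after cyclic loess and 3 to 5 with an array left out (5 without control replicate 4). In the lower direction they were 1 without control replicates 1 and 5 (Phka2) and 0 to 1 with an array left out. Of the other pathway genes, 1 to 4 were higher and 0 to 2 lower with an array left out (4 and 2 without control replicate 2), and 0 were lower with array weights, after median centring and with the mean of probe sets. The shares over all genes given further above belong to the main fit, and none is given here for the other settings. Groups also separate more easily with fewer arrays, so these counts cannot be set against the main shares. Over all genes, 28 had an unadjusted p below 0.05 and at least 1.5-fold, and 1 passed the adjusted threshold without control replicate 2, which was no member. Both groups have replicates numbered 1 to 5, but not every same-numbered pair deviated together (correlations across genes of 0.24, 0.01, -0.13, 0.23 and 0.10 for numbers 1 to 5), so they were not treated as pairs. With the replicate block 6 members were higher, and the 7 ratios had the same differences. The number of arrays limits the precision, with a median SE of 0.10 for the members.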

Other observations

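Probe sets shared between a listed gene and another gene cannot be credited to either. The set shared by Aldoa, the main aldolase of muscle, and Aldoart1 stood at 8.71, 8.76, 8.79, 8.85 and 8.54 in the control mice and at 8.77, 8.70, 8.93, 9.12 and 8.68 in the carnitine mice, and the groups overlapped. The set shared by Pgm1, the main phosphoglucomutase of muscle, and Itgb3bp stood at 11.26, 11.50, 11.72, 11.16 and 11.57 and at 11.54, 11.65, 11.49, 11.55 and 11.63. There too control replicates 1 and 4 were the lowest. Hk1 and Gapdh, measured by sets of their own, also have 1 and 8 shared sets. The set shared by Hk1 and Hk1os differed by -0.148 (SE 0.109), against 0.02 in the kept Hk1 set. The sets shared by Gapdh and Gm12070 differed by 0.026 to 0.058, and the dim set shared by Gapdh and Gapdh-ps15 by 0.072.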
